A study of Mus musculus with 6 samples.

Results

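The genes described here encode the fibroblast growth factor (FGF) receptors Fgfr1, Fgfr2, Fgfr3 and Fgfr4, the FGF ligands Fgf2 and Fgf7, and the sprouty inhibitors Spry1, Spry2 and Spry4. They were chosen by gene symbol, with the brightest probe of a gene by its mean over all arrays, and they are 9 of the 19321 named genes on the array. Each of the 9 has 1 probe, and all 9 passed the filter on dim probes, which kept 18372 genes. RNA was measured on 6 one-colour microarrays, 1 for each of 3 cell populations at each of 2 ages. All cells were freshly sorted from hind limb muscle of C57BL/6 mice, and no group carried another allele or agent. The groups were aged (24 to 28 months) and young (8 to 10 weeks) satellite cells, the stem cells of the muscle fibre, then aged and young PDGFRa+ mesenchymal progenitors, the interstitial cells that can form fibroblasts and adipocytes, and then aged and young CD31+ or CD45+ cells. That last population, written CD31_CD45 below, mixes endothelial and hematopoietic cells. Cells of repeated sorts were pooled for each array and the number of animals is not given in the labels, so no cell type has a replicate at either age, and p-values measure only how far the aged and young arrays differ in other ways than the age gap common to the 3 cell types, a spread that may be technical.

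FGF receptors are receptor tyrosine kinases that bind FGF ligands together with heparan sulfate and signal through the adaptor Frs2 to the Ras and ERK cascade. Sprouty proteins are made in response to this signal and restrain it, and the ETS factors and ERK phosphatases are further products of it. In mouse skeletal muscle, satellite cells use Fgfr1 and Fgfr4, FGF2 drives their proliferation, and Spry1 is needed for their return to quiescence. The study asked which genes are particular to a cell population and which differ with age, and for these 9 genes that is the question taken up below.

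The promoters of the 3 members that were called higher in one population than in both others are shown here, to be set beside their values below. Each is RefSeq sequence of GRCm38.p6 that runs from 250 bases before to 50 bases after the annotated start, 5′ to 3′ on the plus strand. Capitals mark the E-box CANNTG, the kind of site that myogenic basic helix-loop-helix factors bind, and the M-CAT core CATTCC, read on either strand (GGAATG on the other), which TEAD factors bind.
Fgfr4, chr13:55152568-55152867: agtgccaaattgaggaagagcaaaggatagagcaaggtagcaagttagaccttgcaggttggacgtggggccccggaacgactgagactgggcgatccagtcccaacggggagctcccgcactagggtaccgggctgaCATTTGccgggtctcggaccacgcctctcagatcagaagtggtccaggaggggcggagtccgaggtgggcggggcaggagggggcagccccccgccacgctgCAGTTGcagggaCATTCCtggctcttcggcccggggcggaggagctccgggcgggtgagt
Spry1, chr3:37639697-37639996: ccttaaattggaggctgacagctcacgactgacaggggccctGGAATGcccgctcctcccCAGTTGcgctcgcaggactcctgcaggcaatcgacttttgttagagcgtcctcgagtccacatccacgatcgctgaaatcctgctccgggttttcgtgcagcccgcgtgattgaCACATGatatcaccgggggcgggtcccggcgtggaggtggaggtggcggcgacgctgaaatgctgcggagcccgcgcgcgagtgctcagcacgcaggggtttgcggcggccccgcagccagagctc
Fgf7, chr2:126034408-126034707: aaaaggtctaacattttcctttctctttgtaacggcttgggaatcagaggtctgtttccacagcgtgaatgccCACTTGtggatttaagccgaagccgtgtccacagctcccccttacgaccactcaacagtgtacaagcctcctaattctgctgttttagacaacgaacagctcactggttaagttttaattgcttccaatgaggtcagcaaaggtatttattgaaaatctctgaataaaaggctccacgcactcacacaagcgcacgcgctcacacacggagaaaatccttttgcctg
The Fgfr4 window holds 2 E-boxes and 1 M-CAT core, with the core just behind the second E-box. The Spry1 window also holds 2 E-boxes and 1 M-CAT core, and the Fgf7 window holds 1 E-box and no M-CAT core. Among 32851 RefSeq promoter windows of the same length, 72.3% hold CANNTG and 14.7% hold CATTCC. The ETS core GGAAGT, held by 23.8% of all windows, and the E-box variant CAGCTG, held by 16.3%, were in none of the 3. These matches are letters in a window and not measured binding sites.

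The labelled populations matched their defining markers. Summed over 10 satellite cell markers, the deposited intensity was 16477 and 21868 in aged and young satellite cells, against 729 to 1001 on the other 4 arrays. The sum over 9 measured mesenchymal markers was 82522 and 107859 in aged and young PDGFRa+ cells, and the sums over 10 endothelial and 10 hematopoietic markers were highest in CD31_CD45 cells. Satellite cells were not free of mesenchymal transcripts: the 9 markers summed to 14081 in aged and 10238 in young satellite cells, against 1537 and 2727 in aged and young CD31_CD45 cells. The 7 pericyte and smooth muscle markers summed to 13918 and 11215 in aged and young CD31_CD45 cells. Their sums were 8364 and 4796 in aged and young satellite cells, and 1116 and 650 in aged and young PDGFRa+ cells. The 7 myofibre markers summed to 4342.7 and 2328.5 in aged and young satellite cells, against 159.5 to 624 on the other 4 arrays. Between 88.4% and 92.3% of 23473 probes were above background on an array. The arrays were put here in 2 sets by the scanner gain slopes in the file headers, and what these sets mark is not stated. Young satellite and both PDGFRa+ arrays were in one, and aged satellite and both CD31_CD45 arrays in the other. In such bulk samples, fewer cells of a type and less RNA per cell cannot be told apart.

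Values below are first given as the intensity that the authors deposited, scaled so that the median probe of an array reads 25. Probes differ in brightness, so these intensities compare arrays for one gene and do not rank the genes. For reference, 95% of 96 negative control spots lay under 1.77 to 2.79 in these units, depending on the array. Differences and tests are on a log2 scale computed here from the scanner values, with an offset of 50 that shrinks the differences of dim genes. A difference was called where limma's adjusted p was under 0.05 and the size at least 2-fold, over 2 arrays per cell type.

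**Figure D1:**
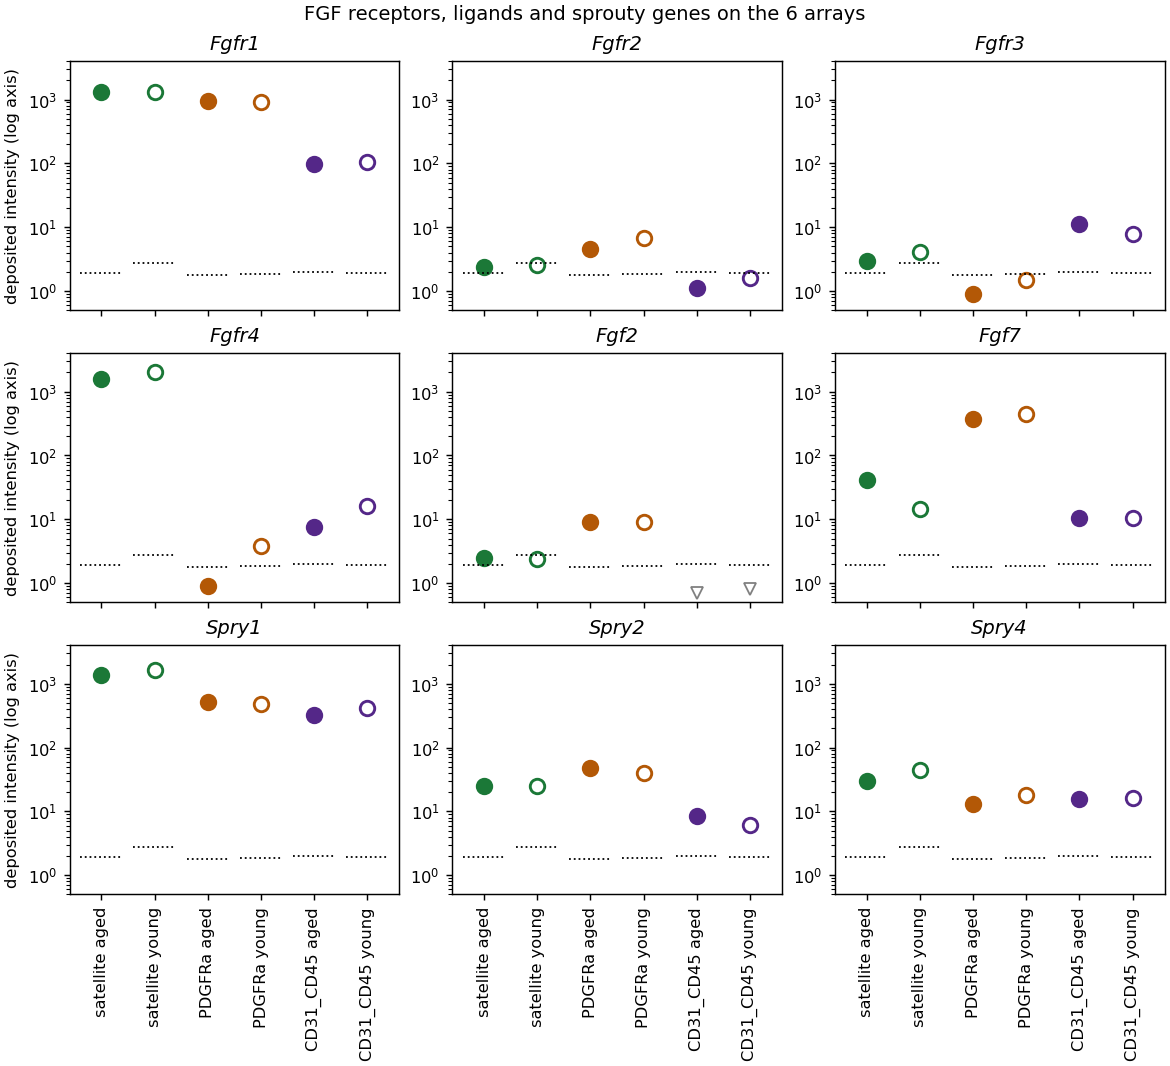
Deposited intensity of the 9 genes on each of the 6 arrays, on a log axis, with satellite, PDGFRa+ and CD31_CD45 cells from left to right and aged (filled) left of young (open) within each. Dotted lines mark the level under which 95% of the negative controls of that array lie, and triangles stand for values not above background. Fgfr4 stands at 1593 and 2046 in aged and young satellite cells and at 0.9 to 16.4 on the other 4 arrays.

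Fgfr4, a receptor known in muscle from myogenic precursors, was the member with the largest difference between cell types. It read 1593 and 2046 in aged and young satellite cells, 0.9 and 3.8 in aged and young PDGFRa+ cells, and 7.6 and 16.4 in aged and young CD31_CD45 cells. Both satellite arrays were far above the other 4, and the aged PDGFRa+ value lay among the negative controls. Satellite cells exceeded PDGFRa+ cells by 5.64 on the log2 scale (SE 0.07, limma adjusted p = 0.00392), which is 49.9-fold. They exceeded CD31_CD45 cells by 5.31 (SE 0.07, limma adjusted p = 0.000720), or 39.7-fold. The ratio of deposited intensities, which has no offset, was 210 in aged and 125 in young cells for satellite over CD31_CD45 cells. The log2 difference from PDGFRa+ cells ran from 3.78 with the local background of each spot (limma adjusted p = 0.174) to 9.93 in the authors' value table. Between the dim populations, PDGFRa+ cells stood 0.33 below CD31_CD45 cells (limma adjusted p = 0.0400), under 2-fold and not called.

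Fgfr1, the receptor that is most widely expressed in mesenchymal tissues, was bright in both satellite and PDGFRa+ cells. It read 1310 and 1324 in aged and young satellite cells, 935 and 906 in aged and young PDGFRa+ cells, and 99.2 and 103 in aged and young CD31_CD45 cells. The arrays of a cell type lay close together and no cell types overlapped. The gene rose in satellite cells over CD31_CD45 cells by 3.35 (SE 0.06, limma adjusted p = 0.000843), or 10.2-fold, and in PDGFRa+ over CD31_CD45 cells by 2.74 (SE 0.06, limma adjusted p = 0.000894), or 6.69-fold. Its difference between satellite and PDGFRa+ cells was 0.61 (SE 0.06, limma adjusted p = 0.0124), which is under 2-fold and was not called, and with the local background it was -0.43.

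Fgfr2 and Fgfr3, receptors best known from epithelia and from the growth plate, were dim on all 6 arrays. Fgfr2 read 2.4 and 2.6 in aged and young satellite cells, 4.6 and 6.7 in aged and young PDGFRa+ cells, and 1.1 and 1.6 in aged and young CD31_CD45 cells. The satellite and CD31_CD45 values lay in or near the range of the negative controls, and PDGFRa+ cells were above it. Fgfr3 had another order, with 3.0 and 4.1 in aged and young satellite cells, 0.9 and 1.5 in aged and young PDGFRa+ cells, and 11.1 and 7.9 in aged and young CD31_CD45 cells. CD31_CD45 cells were the brightest for Fgfr3 and PDGFRa+ cells were at the level of the controls. No difference of either gene reached 2-fold on the log2 scale, where the largest were 0.17 for Fgfr2 and -0.30 for Fgfr3 in PDGFRa+ minus CD31_CD45 cells (limma adjusted p = 0.0495 and 0.0298). In the authors' value table, which keeps the full ratio of dim spots, Fgfr2 was called in 2 and Fgfr3 in 3 of the 3 comparisons of cell types.

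Fgf7, a secreted ligand made by mesenchyme that acts on the epithelial form of Fgfr2, was the member called higher in PDGFRa+ cells than in both other populations. It read 41.9 and 14.6 in aged and young satellite cells, 376 and 445 in aged and young PDGFRa+ cells, and 10.4 and 10.5 in aged and young CD31_CD45 cells. Both PDGFRa+ arrays were above all others, and the aged satellite array was next. Fgf7 was lower in satellite than in PDGFRa+ cells by a log2 difference of -2.81 (SE 0.22, limma adjusted p = 0.0102), a factor of 7.03. In PDGFRa+ over CD31_CD45 cells it rose by 3.27 (SE 0.22, limma adjusted p = 0.00486), or 9.62-fold. Satellite minus CD31_CD45 cells gave 0.45 (SE 0.22, limma adjusted p = 0.219). The SE of Fgf7 was the largest among the 9 genes, and its 2 satellite arrays lay 0.66 apart.

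Fgf2, a ligand without a signal peptide that acts on many cell types, was dim throughout. Aged and young satellite cells read 2.5 and 2.4, aged and young PDGFRa+ cells 9.0 and 9.2, and both CD31_CD45 arrays were not above background. PDGFRa+ cells exceeded CD31_CD45 cells by at least 1.25-fold on the offset scale, a bound that was not itself tested. The fitted log2 difference, which uses the CD31_CD45 values not above background, was 0.35 (limma adjusted p = 0.0105). The satellite values lay in or near the range of the negative controls, and their difference from CD31_CD45 cells did not pass the test (limma adjusted p = 0.134). The bound sets the mean of the bright group against the lowest signal above background on the dim arrays. Satellite minus PDGFRa+ cells gave -0.25 (SE 0.04, limma adjusted p = 0.0245), under 2-fold.

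Spry1, the sprouty gene tied to satellite cell quiescence, was bright in every population and brightest in satellite cells. It read 1356 and 1669 in aged and young satellite cells, 511 and 478 in aged and young PDGFRa+ cells, and 325 and 417 in aged and young CD31_CD45 cells. The satellite arrays were apart from the other 4, while PDGFRa+ and CD31_CD45 cells were near each other. Spry1 rose in satellite over PDGFRa+ cells by 1.61 (SE 0.15, limma adjusted p = 0.0127), or 3.06-fold, and over CD31_CD45 cells by 1.96 (SE 0.15, limma adjusted p = 0.00530), or 3.88-fold. PDGFRa+ minus CD31_CD45 cells gave 0.34 (SE 0.15, limma adjusted p = 0.20). With scanner set as a block, the difference from PDGFRa+ cells was 1.70 and was not called. For this comparison the block gives the same fit as leaving out the aged satellite array.

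Spry2 and Spry4, related inhibitors of receptor tyrosine kinase signalling, were dimmer and differed less. Spry2 read 24.9 and 24.9 in aged and young satellite cells, 48.0 and 40.4 in aged and young PDGFRa+ cells, and 8.5 and 6.1 in aged and young CD31_CD45 cells. Its order placed PDGFRa+ first, satellite next and CD31_CD45 cells last, with no overlap. The step from CD31_CD45 to PDGFRa+ cells was 0.93 (SE 0.08, limma adjusted p = 0.00666), which is 1.91-fold and just short of the size for a call. Spry4 read 30.0 and 44.8 in aged and young satellite cells, 12.9 and 18 in aged and young PDGFRa+ cells, and 15.5 and 16.5 in aged and young CD31_CD45 cells. Satellite cells were above both others, and the PDGFRa+ and CD31_CD45 arrays overlapped. Spry4 was 0.51 higher in satellite than in PDGFRa+ cells (SE 0.08, limma adjusted p = 0.0274) and 0.51 higher than in CD31_CD45 cells (SE 0.08, limma adjusted p = 0.0201), both under 2-fold.

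**Figure D2:**
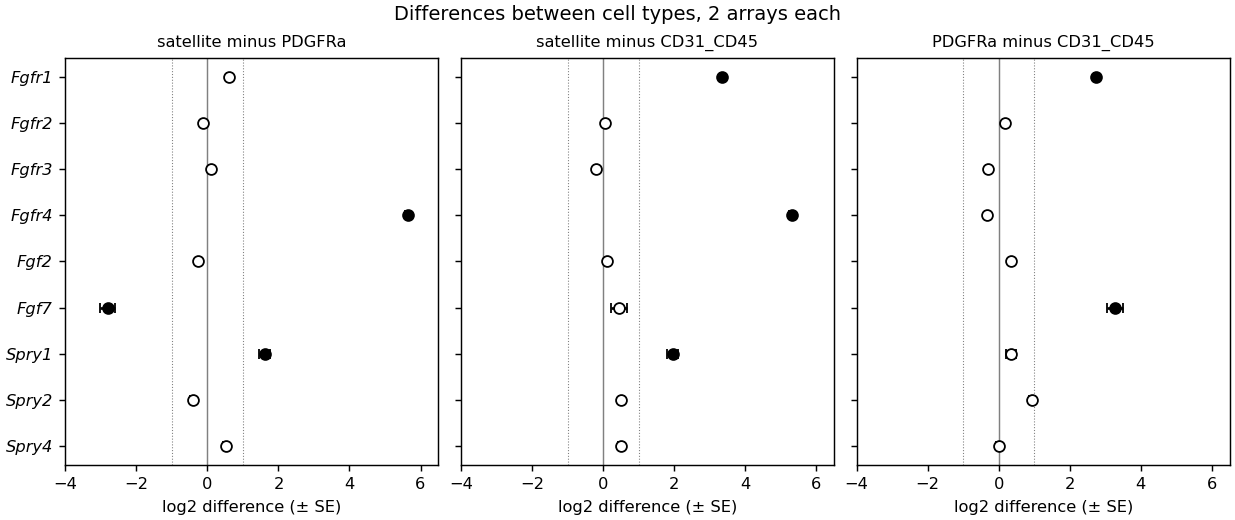
Log2 differences of the 9 genes between cell types, with SE as bars, in the 3 comparisons, with called differences as filled points and the 2-fold bounds as dotted lines. Fgfr4 reaches 5.64 and 5.31 in satellite cells, Fgf7 stands at -2.81 in satellite minus PDGFRa+ cells, and Fgfr2, Fgfr3, Fgf2, Spry2 and Spry4 stay within the bounds.

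Counted over the family, 3 of 9 members were called in satellite against PDGFRa+ cells, Fgfr4 and Spry1 higher and Fgf7 lower, where 7.29% of all genes tested were called (3.20% higher and 4.09% lower). In satellite against CD31_CD45 cells 3 of 9 were called, Fgfr1, Fgfr4 and Spry1, all higher, beside 11.7% of all genes (5.12% higher and 6.57% lower). In PDGFRa+ against CD31_CD45 cells 2 of 9 were called, Fgfr1 and Fgf7, both higher, beside 10.1% of all genes (4.70% higher and 5.40% lower). The median log2 difference of the 9 members was 0.09, 0.51 and 0.34 in these comparisons, against 0.01, 0.02 and 0.01 over all genes. Fgfr4 and Spry1 exceeded both other populations in satellite cells, as did 2.13% of all genes, and Fgf7 did so in PDGFRa+ cells, as did 2.43% of all genes. No member was called higher in CD31_CD45 cells than in both others, which 4.55% of genes were. Members were chosen with earlier results known, so these counts describe the list and test nothing about it.

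The calls between satellite and PDGFRa+ cells rested on both PDGFRa+ arrays. Without the aged PDGFRa+ array, limma called none of the members and none of all genes, where 7 members and 5422 genes had an unadjusted p under 0.05, with adjusted p of 0.0505 for Fgfr4, 0.0602 for Fgf7 and 0.0505 for Spry1. The differences there were 5.73 for Fgfr4, -3.02 for Fgf7 and 1.85 for Spry1. Without the young PDGFRa+ array it again called none (7 members and 5030 genes at an unadjusted p under 0.05), with adjusted p of 0.0649, 0.0793 and 0.0649 and differences of 5.55, -2.61 and 1.38 for the same genes. A fit without 1 array has 1 residual degree of freedom. With the local background limma called no member in the 3 comparisons, where 3, 3 and 2 members had an unadjusted p under 0.05. Without the aged or the young satellite array, Spry1 alone was lost, with differences of 1.70 and 1.53 and limma adjusted p of 0.0509 and 0.0672. Within the set of arrays that hold young satellite and both PDGFRa+ samples, satellite minus PDGFRa+ cells was 5.77 for Fgfr4, -3.14 for Fgf7, 1.71 for Spry1 and 0.57 for Fgfr1. Within the other set, aged satellite minus CD31_CD45 cells was 5.18 for Fgfr4, 3.40 for Fgfr1, 1.86 for Spry1 and 0.78 for Fgf7. PDGFRa+ and CD31_CD45 cells share no set. With set as a block limma still called Fgfr1 and Fgf7 between them. That fit parts set from cell type there only by assuming that satellite cells share the common age gap. The block is estimated through the aged and young satellite arrays alone, so it cannot be told apart from an age gap particular to satellite cells.

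The rest of the pathway was read from a list of 73 further genes, of which 65 were measured and 64 tested. In satellite against PDGFRa+ cells 5 were higher and 6 lower, in satellite against CD31_CD45 cells 9 were higher and 3 lower, and in PDGFRa+ against CD31_CD45 cells 9 were higher and 3 lower. These are 17.2%, 18.8% and 18.8% of the 64, beside the 7.29%, 11.7% and 10.1% of all genes. The median log2 difference of the list was 0.00, 0.04 and 0.03, near that of all genes. The list holds genes that were dim on every array, such as Fgf3 and Fgf6, and the offset shrinks their differences. Of 11 adaptors and cascade members, the small GTPase Nras alone was called, lower in satellite than in CD31_CD45 cells (log2 -1.03, limma adjusted p = 0.00491).

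Among 19 other ligands, Fgf18, a ligand of cartilage and bone growth, divided the populations most. It read 15.4 and 5.8 in aged and young satellite cells, 494 and 470 in aged and young PDGFRa+ cells, and 22.7 and 13.8 in aged and young CD31_CD45 cells. Only the PDGFRa+ arrays were bright, and satellite minus PDGFRa+ cells was -3.48 (limma adjusted p = 0.00392) and PDGFRa+ minus CD31_CD45 cells 3.25 (limma adjusted p = 0.000862). Fgf13, which encodes an intracellular FGF homologous factor that does not act through the receptors, went the other way, with 108 and 115 in aged and young satellite cells and 2.3 to 11.7 elsewhere. It was 2.0 higher than in PDGFRa+ cells (limma adjusted p = 0.00481) and 1.80 higher than in CD31_CD45 cells (limma adjusted p = 0.00209). Fgf16 was higher than in CD31_CD45 cells by 1.51 in satellite (limma adjusted p = 0.00684) and by 2.27 in PDGFRa+ cells (limma adjusted p = 0.00390). Its relative Fgf9 was lower in satellite than in CD31_CD45 cells (-1.14, limma adjusted p = 0.00644), and acidic FGF, Fgf1, was lower in satellite than in PDGFRa+ cells (-1.86, limma adjusted p = 0.0277).

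Of 12 tested co-receptors and ligand carriers, 3 were called in satellite against PDGFRa+ cells, 2 in satellite against CD31_CD45 cells and 3 in PDGFRa+ against CD31_CD45 cells. Of 6 heparan sulfate enzymes 2, 3 and 2 were called. The shares are 25%, 16.7% and 25% for the first group and 33.3%, 50% and 33.3% for the second, beside 7.29%, 11.7% and 10.1% of all genes. Sdc1, Sdc3, Gpc1, Fgfrl1, Hs6st1 and Ext1 were among those called in none. Sdc4, a syndecan known as a marker of satellite cells, read 3660 and 3870 in aged and young satellite cells, 510 and 350 in aged and young PDGFRa+ cells, and 152 and 193 in aged and young CD31_CD45 cells. It stood 2.89 above PDGFRa+ cells (limma adjusted p = 0.0108) and 4.01 above CD31_CD45 cells (limma adjusted p = 0.00351), with PDGFRa+ cells 1.12 above CD31_CD45 cells (limma adjusted p = 0.0475). Sdc2, its paralog, had the PDGFRa+ cells on top, with satellite minus PDGFRa+ cells at -2.16 (limma adjusted p = 0.00819) and PDGFRa+ minus CD31_CD45 cells at 3.94 (limma adjusted p = 0.00184), and satellite minus CD31_CD45 cells at 1.78 (limma adjusted p = 0.00562). Hs6st2, which adds 6-O-sulfate to heparan sulfate, read 652 and 628 in aged and young satellite cells and 4.5 to 10.4 on the other 4 arrays. That made it 3.96 higher than PDGFRa+ (limma adjusted p = 0.00392) and 4.07 higher than CD31_CD45 cells (limma adjusted p = 0.000961). Sulf2, which removes such sulfates outside the cell, was lower in satellite than in PDGFRa+ cells (-1.18, limma adjusted p = 0.00504). Sulf1, of the same activity, was higher than in CD31_CD45 cells in both satellite (1.49) and PDGFRa+ cells (1.91), and so was the 2-O-sulfotransferase Hs2st1 (1.44 and 1.07), all with limma adjusted p of 0.00619 or less. The FGF receptor binding membrane protein Flrt2 was highest in PDGFRa+ cells, at -1.39 for satellite minus PDGFRa+ (limma adjusted p = 0.00801) and 1.58 for PDGFRa+ minus CD31_CD45 cells (limma adjusted p = 0.00357).

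Of 9 further feedback inhibitors, 0, 1 and 2 were called in the 3 comparisons, in the order used above. These are 0%, 11.1% and 22.2%, beside 7.29%, 11.7% and 10.1% of all genes. Those called were lower in satellite or PDGFRa+ than in CD31_CD45 cells. The rest went both ways under 2-fold, with PDGFRa+ minus CD31_CD45 cells at 0.76 for Spred1 and -0.23 for Cbl (limma adjusted p = 0.00288 and 0.0260). Dusp6, the cytoplasmic ERK phosphatase, read 264 and 211 in aged and young satellite cells, 265 and 315 in aged and young PDGFRa+ cells, and 808 and 867 in aged and young CD31_CD45 cells. It was thus lower in satellite (-1.69, limma adjusted p = 0.00576) and in PDGFRa+ cells (-1.51, limma adjusted p = 0.00801) than in CD31_CD45 cells, the reverse of Fgfr1. The nuclear ERK phosphatase Dusp5 was lower in PDGFRa+ than in CD31_CD45 cells (-1.09, limma adjusted p = 0.0138). Among 7 targets, Myc was higher in satellite than in PDGFRa+ cells (1.28, limma adjusted p = 0.00644) and than in CD31_CD45 cells (2.79, limma adjusted p = 0.000990), and higher in PDGFRa+ than in CD31_CD45 cells (1.51, limma adjusted p = 0.00241). The immediate early gene Egr1 was higher than in CD31_CD45 cells in satellite (2.34, limma adjusted p = 0.00476) and in PDGFRa+ cells (1.47, limma adjusted p = 0.0127). The ETS factor Etv1 was lower in satellite than in PDGFRa+ cells (-1.05, limma adjusted p = 0.00464). Ccnd1, which encodes cyclin D1, was higher in satellite than in PDGFRa+ cells (1.06, limma adjusted p = 0.00705) and lower in PDGFRa+ than in CD31_CD45 cells (-1.10, limma adjusted p = 0.00337).

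**Figure D3:**
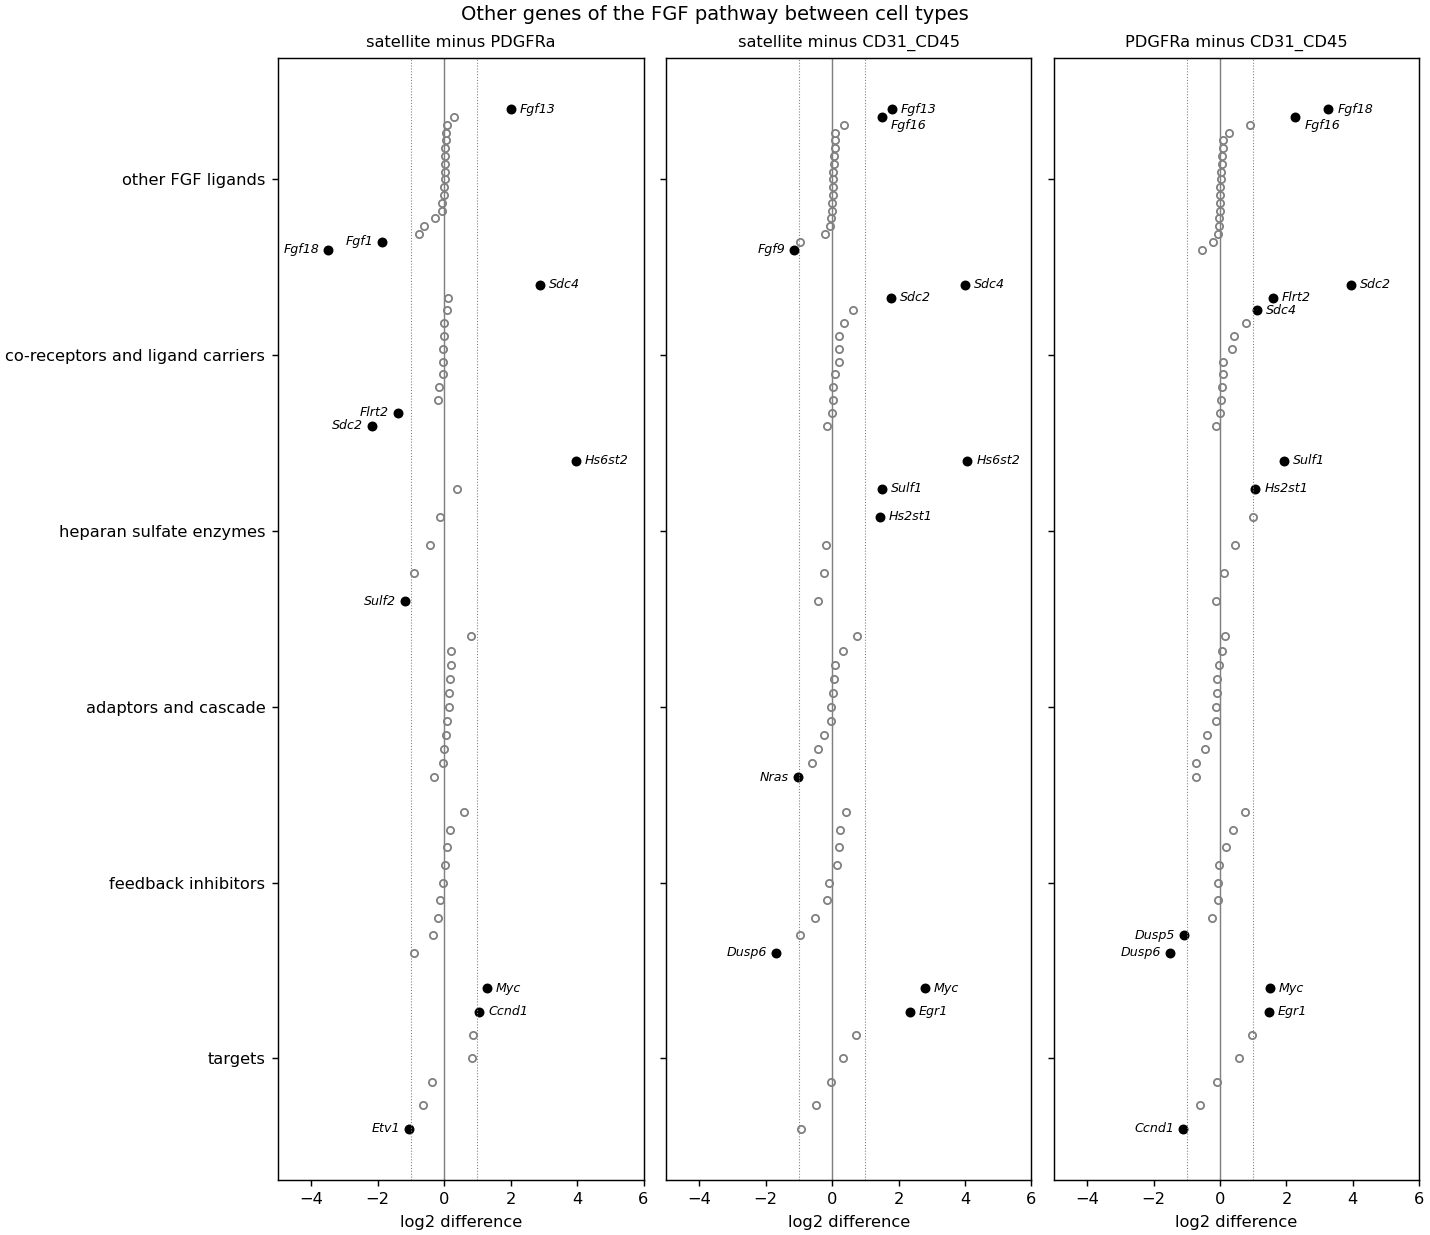
Log2 differences of 64 further genes of the FGF pathway between cell types, by group, with genes that were called as filled and named points and 2-fold bounds as dotted lines. Hs6st2 and Sdc4 reach 3.96 and 2.89 in satellite minus PDGFRa+ cells, and Fgf18 stands at -3.48.

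Age moved none of the members past the test. In the term for aged minus young common to the 3 cell types, limma called 0 of 9 members and 0% of all genes, with 2026 genes at an unadjusted p under 0.05. Fgfr4 had the lowest unadjusted limma p of the 9, at 0.0197 (log2 -0.22, SE 0.05, adjusted p = 0.379), and its value was lower in the aged array of satellite and of CD31_CD45 cells, with ratios of aged to young deposited intensity of 0.778 and 0.463. In PDGFRa+ cells its aged value of 0.9 lay within the negative controls, so no ratio is given. In the CD31_CD45 pair, 6 of 10 satellite cell markers were also lower in the aged array and 4 were higher. The lower ones included Myf5, with a ratio of 0.298, and Pax7, with 0.349. The aged Pax7 value there, 3.7, lay under the highest negative control of that array, 5.59. The 4 higher ones were Des, Itga7, Vcam1 and Msc, with ratios of 1.84, 1.29, 1.29 and 1.07. The part of satellite cell transcripts in the Fgfr4 value was not tested. The other 8 members had limma adjusted p between 0.530 and 0.944.

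Within a cell type, age rests on 1 aged and 1 young array and has no replicate check. None of the 9 members reached 2-fold on the log2 scale in any population, where 1.22% of genes did in satellite cells, 0.422% in PDGFRa+ cells and 0.575% in CD31_CD45 cells. Aged minus young satellite cells gave -0.27 for Fgfr4, -0.20 for Spry1, -0.30 for Spry4, -0.01 for Spry2 and 0.09 for Fgfr1. In PDGFRa+ cells Spry1 and Spry2 were 0.22 and 0.23 higher in the aged array, and in CD31_CD45 cells Spry1 was at -0.29 and Fgfr4 at -0.29. Fgf2 and Fgfr2 were too dim in most populations for an age difference to be read, and Fgf2 was not above background in CD31_CD45 cells at either age. Of the 65 measured pathway genes, only the syndecan Sdc1 passed 2-fold on the log2 scale in any pair. It read 91.7 in aged and 19.3 in young satellite cells (log2 1.26). That scale shrinks dim genes, and the deposited values of some others were more than 2-fold apart, in both directions. In satellite cells Fgf18 read 15.4 in the aged and 5.8 in the young array, and Flrt1 read 3.4 and 9.2.

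On the log2 scale, with its offset, the widest age gap among the members was that of Fgf7 in satellite cells, at 0.66. The deposited values were 41.9 in the aged and 14.6 in the young array, a ratio of 2.87. It passed 2-fold without background correction (1.02), with an offset of 10 (1.17) and in the authors' value table (1.52). Fgf7 in PDGFRa+ and CD31_CD45 cells differed by -0.09 and -0.01. Markers of several other cell types stood higher in the same aged satellite array. Of 9 measured mesenchymal markers 5 were at least 2-fold higher there, as were 4 of 6 tenocyte, 4 of 7 pericyte and smooth muscle, 4 of 7 myofibre and 2 of 10 hematopoietic markers, against 0 of 10 satellite cell, 0 of 10 endothelial and 0 of 3 glial markers. Over all genes, 1.22% were at least 2-fold apart in that pair, in either direction. Pdgfra itself read 60.6 in aged and 7.6 in young satellite cells, and the collagen-binding Lum read 224.6 and 43.8. The summed mesenchymal markers were 14081 in aged and 10238 in young satellite cells, and the tenocyte sum was 3229 and 838. All measured markers of both lists were above background on both arrays, and their part in the Fgf7 difference was not tested.

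**Figure D4:**
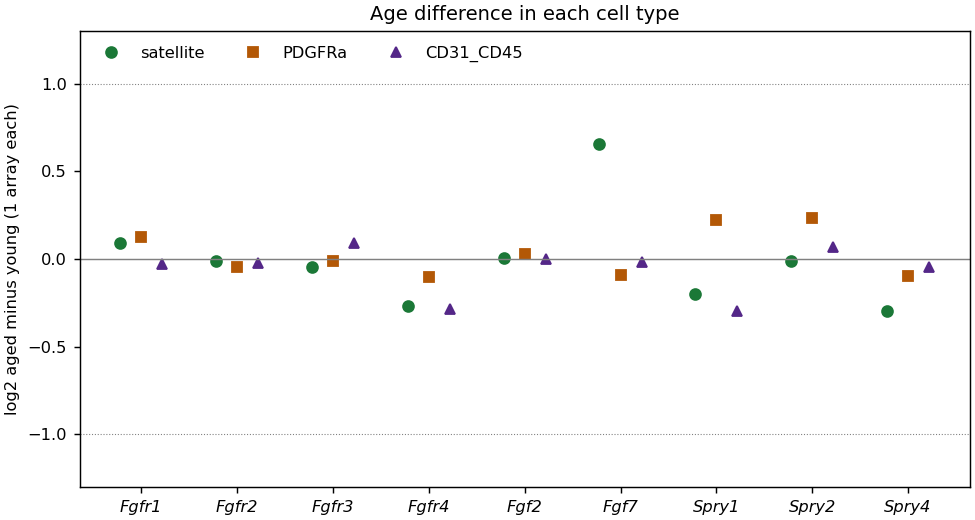
Log2 difference of aged minus young for the 9 genes in each population, 1 array each, with the 2-fold bounds as dotted lines. Fgf7 in satellite cells lies at 0.66, and all other points lie between -0.30 and 0.23.

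The profiles of 5 members spanned at least 2-fold over the 6 arrays and were set against those of all other tested genes by the root mean square (RMS) difference of their centred log2 values. Nearest to Fgfr4 were Myf5 (0.12), Erfe (0.14) and Vgll2 (0.17), where Myf5 is the myogenic factor and also one of the satellite cell markers used above. Myf5 read 1638 and 2651 in aged and young satellite cells, 2.5 and 4.0 in aged and young PDGFRa+ cells, and 8.6 and 28.9 in aged and young CD31_CD45 cells, the same order as Fgfr4. Nearest to Fgfr1 were Fxyd6 (0.17), Pmepa1 (0.19) and Dmrt2 (0.20). Nearest to Fgf7 were Crispld2 (0.08), Col6a2, a collagen VI chain (0.13), and 1700019D03Rik (0.16). Col6a2 had its higher satellite value in the aged array, with 57.5 in aged and 27.9 in young cells. Nearest to Spry1 were Ttc3 (0.08), the ribosomal protein gene Rpl23 (0.12) and the noncoding RNA Zfas1 (0.12), and nearest to Spry2 were Tmem150a (0.03), Grtp1 (0.05) and Mypop (0.05). The dim genes Fgfr2, Fgfr3 and Fgf2 and the narrowly ranging Spry4 were not compared. With 6 arrays in 3 pairs, many genes share such a profile, and these distances carry no test. The nearest genes were picked by these same values, so a shared order or age gap follows from the choice.

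**Figure D5:**
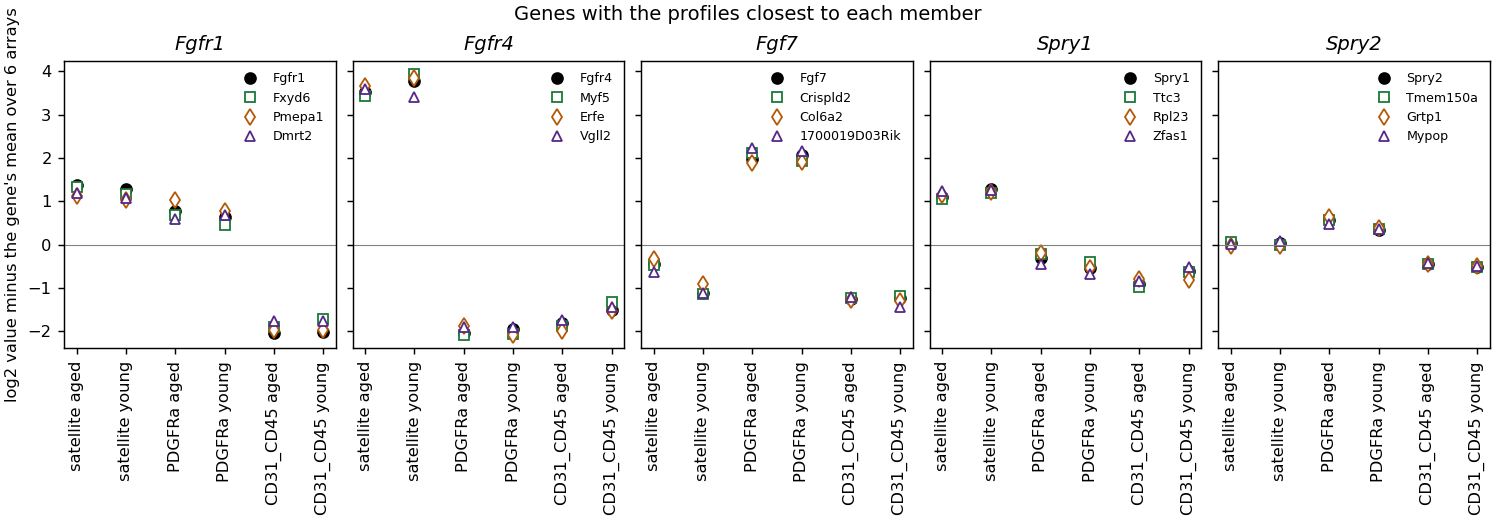
Centred log2 profiles over the 6 arrays of Fgfr1, Fgfr4, Fgf7, Spry1 and Spry2, each with its 3 nearest genes. The points of Fgfr4 and Myf5 lie an RMS of 0.12 apart, and each profile steps between cell types.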

How the data were processed

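RNA from sorted cells was amplified with amino allyl nucleotides and labelled with Cy5, per the labels' protocols. Per the file headers, each scanner file holds the median intensity of 27456 spots at 635 nm, merged from 3 gains. In the authors' deposited table these became background-subtracted linear intensity values with a column median of 25, left empty where a spot is not above background. Set against the scanner files, it equals the spot median less the trimmed mean (5% at each end) of 2736 blank spots, times a constant, to within 0.0905. Software used to make it and a genome build are not given in the sources used here.

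The log2 values were computed here from the deposited spot medians. They were corrected by normexp against the blank spots (offset 50) and quantile normalised with limma 3.58.1 in R 4.3.3. Local background followed the spot signal (log correlation 0.961 to 0.980) and served only as an alternative. Genes above background on at least 2 of 6 arrays were tested, 18372 of 19321. The model had cell type and age as terms (lmFit and eBayes, 2 residual and 1.50 prior degrees of freedom), with two-sided tests and Benjamini-Hochberg adjustment over all genes tested. The script was tested on simulated data. The number of arrays limits the precision.

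Gene names come from GEO's platform annotation: 20690 of 23473 probes have 1 symbol, and 2783 have none or several. Members and gene lists were chosen with earlier results of these data known. Pathway genes are named where called, up to the 6 largest per group and comparison, and, within an age pair, past 2-fold. Alternatives were the local background, no correction, an offset of 10, the authors' value table, median scaling, 2 filters on dim probes, scanner set as a block, no age term, and each array left out. The plan to try other probes of a member did not apply, since each has 1.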

Additional observations from a re-analysis of the deposited data

How the results depend on the processing

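No paired analysis was possible because the labels carry no replicate numbers that arrays of different groups share, with 1 array per cell type and age. Over all settings, 644 values kept their direction and their side of the threshold or stayed within the spread, and the cause of the changes below was not tested. In satellite minus PDGFRa+ cells (1339 genes, 3 members), the genes called were 68 with the local background, 2213 with an offset of 10 and 3149 in the authors' table, and the members called were 0 with the local background and 7 in the table. Leaving out 1 array gave 0 to 1312 genes and 0 to 3 members, with 0 without either PDGFRa+ array. Such fits assume that a lone array varies like the other groups. In satellite minus CD31_CD45 cells (2147 genes, 3 members), the counts were 342 local, 3382 offset 10 and 4714 table for genes, 0 local and 7 table for members, and 1734 to 2126 genes with 1 array left out. In PDGFRa+ minus CD31_CD45 cells (1857 genes, 2 members), the genes called were 289 local, 2945 offset 10, 4004 table and 835 with scanner set as a block, and 1131 to 1815 with 1 array left out, lowest without young PDGFRa+ cells. Members called there were 0 local, 3 without background correction, 4 offset 10 and 7 table, and 2 to 3 with 1 array left out. The age term of limma called no gene in any fit run.

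Genes at least 2-fold apart in the age pair of satellite cells (221, no member) were 1266 local, 374 uncorrected, 478 offset 10 and 1481 table, with 2, 1, 1 and 1 members. For PDGFRa+ cells (76) they were 1084, 148, 198 and 1119, with 1 member local and 1 in the table, and for CD31_CD45 cells (105) they were 927, 170, 218 and 797, with 1 member in the table.

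Signs turned for 20 values of single members, none of them called in either fit. With the local background, satellite minus PDGFRa+ cells gave -0.43 for Fgfr1 and 0.0066 for Fgfr2. PDGFRa+ minus CD31_CD45 cells gave 0.020 for Spry4 with median scaling, and -0.080 to 0.070 with 1 array left out. Of aged minus young, the local background gave 0.026 for Fgfr2, -0.0010 for Fgfr3 and 0.0019 for Spry4, and the authors' table -0.0098 for Fgfr1, -0.23 for Fgfr3 and -0.055 for Fgf2. Median scaling gave -0.0053 for Fgfr3 and -0.028 for Fgf2, and moved the median of all genes to 0.11 in satellite minus CD31_CD45 cells, where the authors' table has 0.14. Fgf7 was at -0.052 with scanner set as a block, which for the age term is the same estimate as without either satellite array. With 1 array left out, Fgf7 ran from -0.052 (without either satellite array) to 0.32, Fgfr3 from -0.027 to 0.041 and Spry1 from -0.25 to 0.012.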
